A study of Mus musculus with 18 samples.

Results

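The genes that copy the genome in S phase were examined in the nascent transcriptome of mouse embryonic stem (ES) cells. The list held 46 genes, chosen by name, and each matched 1 row of the deposited table of 21859 protein-coding genes. The members were grouped by role into origin licensing (Orc1 to Orc6, Cdc6 and Cdt1), the replicative helicase (Mcm2 to Mcm7, Mcm10, Cdc45 and Gins1 to Gins4), the polymerases with primase (Pola1, Pola2, Prim1, Prim2, Pole, Pole2 and Pold1 to Pold3), the sliding clamp with its loader (Pcna and Rfc1 to Rfc5), the single-strand binding complex (Rpa1 to Rpa3), Okazaki fragment maturation (Fen1 and Lig1), nucleotide supply (Rrm1, Rrm2, Tyms and Tk1) and the regulators E2f1 and E2f2.

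Nascent RNA was measured by TT-seq, in which cells take up 4-thiouridine (4sU) for 5 min and only the RNA made in that time is captured and sequenced. The 18 libraries came from E14 ES cells grown with LIF and inhibitors of GSK3 and MEK, 3 from each of 6 conditions. Untagged cells carrying the osTIR1 ubiquitin ligase adaptor, and SPT16-AID-V5 clone 1 and clone 2, each 1 clonal line in which the FACT subunit SPT16 is fused to an auxin-inducible degron, were treated for 24 h with 3-IAA, which leads tagged SPT16 to degradation, or with ethanol as vehicle. The values used here are 1 mean per gene over libraries, the baseMean of the deposited table, in reads divided by library size factors. The mean carries no spread between libraries and does not separate depleted from control cells, so the effect of SPT16 depletion on these genes was not analysed here. No difference between genes below has a replicate error or a test.

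In each cell cycle the origin recognition complex (ORC), with Cdc6 and Cdt1, loads the Mcm2 to Mcm7 ring on DNA in G1, and Cdc45 and the GINS complex join the ring in S phase to make the active helicase. Polymerase alpha with primase lays down primers, polymerases epsilon and delta extend them on the PCNA clamp, and ribonucleotide reductase, thymidylate synthase and thymidine kinase supply precursors. E2F factors bind promoters of many of these genes. Mouse ES cells divide quickly, with a short G1, and spend a large part of their cycle in S phase.

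The cells' identity was checked on marker genes in the mean over libraries, which cannot show depleted cells apart from control cells. All 10 ES cell markers were transcribed, from 401 for Esrrb to 5779 for Dppa5a in baseMean per kb of gene span, and all lay above the 85th percentile of genes by baseMean (lowest 85.8, Sox2). Of the 5 fibroblast markers, 4 lay at or below a percentile of 28.9 by baseMean, and Pdgfrb was at 58.9. The 5 markers of liver, heart, T cell, pancreas and glia lay at or below a percentile of 34.0.

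The promoters are shown first, because E2F-type sites are a known feature of many replication genes across these roles. RefSeq promoter windows on GRCm38.p6, running from 250 bases before the start of a gene to 50 bases after it, were found for 39 of the 46 genes, and Gins1, Gins2, Gins4, Mcm4, Pole, Prim2 and Rfc2 were unmatched. The windows were searched on both strands for the E2F-type words TTTCCCGC, TTTGGCGC, TTTCGCGC and TTTGCCGC. At least 1 word was found in 16 of 39 members (41.0%), beside 2.61% of all 27025 genes with a window (704 genes) and 5.06% of 8127 genes with a window whose baseMean was at or above the median (411 genes). Before the RefSeq start alone, 9 of 39 members (23.1%) held a word. The shares were 2.16% of all genes and 4.22% of genes at or above the median baseMean. The stretches of 40 bases that carry a word in these 9 genes are printed below, 5′ to 3′ on the strand of the gene, with the word in capitals.

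Orc1: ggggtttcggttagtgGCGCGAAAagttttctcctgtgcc
Orc3: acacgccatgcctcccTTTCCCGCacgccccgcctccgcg
Cdc6: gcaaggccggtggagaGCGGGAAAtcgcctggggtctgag
Mcm5: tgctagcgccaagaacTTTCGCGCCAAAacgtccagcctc
Mcm6: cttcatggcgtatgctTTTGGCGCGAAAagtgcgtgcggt
Mcm7: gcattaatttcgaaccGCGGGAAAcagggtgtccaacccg
Gins3: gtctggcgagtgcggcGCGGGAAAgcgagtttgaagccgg
Pola1: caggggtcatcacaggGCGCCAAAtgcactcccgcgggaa
Rfc3: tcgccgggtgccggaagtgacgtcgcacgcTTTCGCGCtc

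The stretch of Orc1 lies at chr4:108579411-108579450 on the plus strand, that of Mcm5 at chr8:75109340-75109379 on the plus strand and that of Mcm6 at chr1:128359792-128359831 on the minus strand. In Mcm5 and Mcm6 a pair of words overlapped to make 12 bases in capitals, and the 12 bases of Mcm5 are the reverse complement of those of Mcm6. Of all 27025 genes, 4 held these 12 bases in the window, which is 0.0148%. Mcm5 and Mcm6, from whose windows the 12 bases were taken, are among the 4. The word of Orc1 began 27 bases before the RefSeq start, those of Orc3 and Gins3 41 bases before it, and those of Cdc6 and Pola1 138 bases before it. The other 7 genes with a word held it only after the RefSeq start (Cdt1, Mcm3, Pole2, Pold1, Pold3, Lig1 and E2f2). The Gencode gene spans, used below for levels, can start elsewhere. The printed words of Orc1, Cdc6, Mcm7, Gins3 and Rfc3 lie inside those spans. By role, 5 of 8 helicase genes with a window held a word, as did 4 of 8 licensing genes, 4 of 7 polymerase genes, 1 of 5 clamp and loader genes, 1 of 2 maturation genes and 1 of 2 E2F genes. No word was found in the windows of the 4 nucleotide supply genes or the 3 RPA genes, which says only that these letters are not in these 300 bases. The members' windows had a median GC content of 60.0%, beside 61.5% for genes at or above the median baseMean. CCAAT, the word bound by NF-Y, was found in 24 of 39 members (61.5%) and in 44.0% of those genes, and GGGCGG, the word bound by Sp factors, in 30 of 39 members (76.9%) and in 72.0%.

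**Figure D1:**
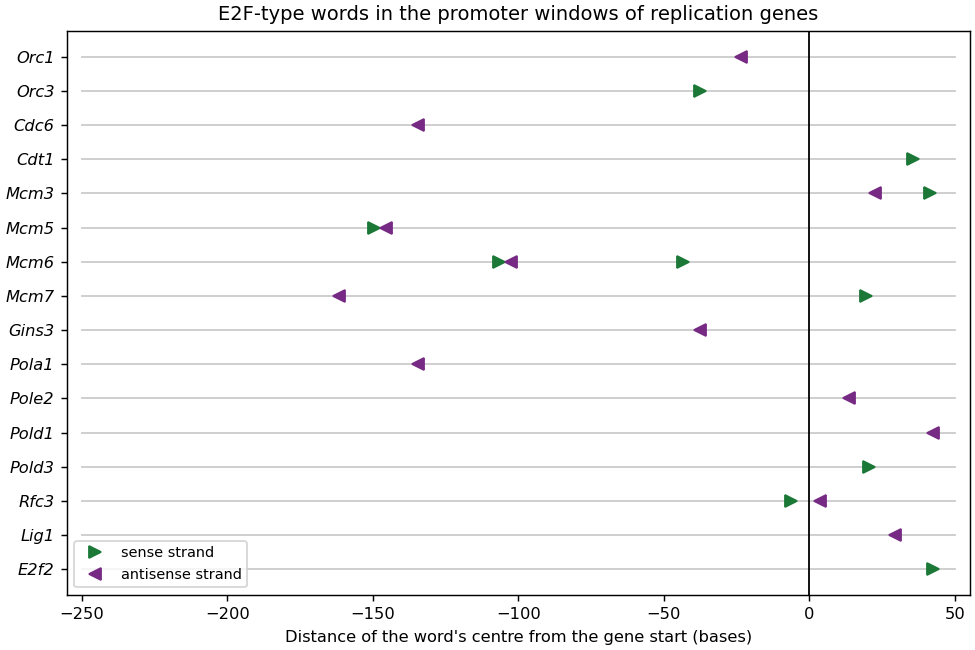
Positions of the E2F-type words in the 16 members that hold one, by gene, with the distance of the centre of each word from the gene start in bases on the x axis and the strand as the direction of the triangle. Starts are those of RefSeq. Of 22 words, 12 lie wholly before the start, and Mcm6 holds 3 of them.

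Transcription was detected from 45 of the 46 genes, and in each of the 45 it was above the median gene. Per kb of gene span, the 45 had a median baseMean of 219.6, beside 21.7 for the 20140 genes with reads and a position, and ranged from 91.4 for E2f2 to 1246 for Pcna. By this scale 20 of the 45 lay above the 90th percentile of genes (239 per kb). The median member lay at a percentile of 88.6, and at 85.5 when the length of merged exons took the place of the span. Without regard to length, the median baseMean was 5112 for the members and 421 for genes with reads. The members together held 0.536% of the summed baseMean of all genes, and the 45 with reads made up 0.223% of the genes with reads. Other replication genes lay on a similar scale. Of 47 further genes of licensing control, fork protection, chromatin assembly and S-phase entry, all had reads, 45 lay above the median level per kb, and their median was 179 per kb of span, from 0.607 for Chtf8, a subunit of an alternative clamp loader, to 815 for Nasp, a histone H3 and H4 chaperone. Of the span of Chtf8, 99.6% is shared with another coding gene on the same strand.

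**Figure D2:**
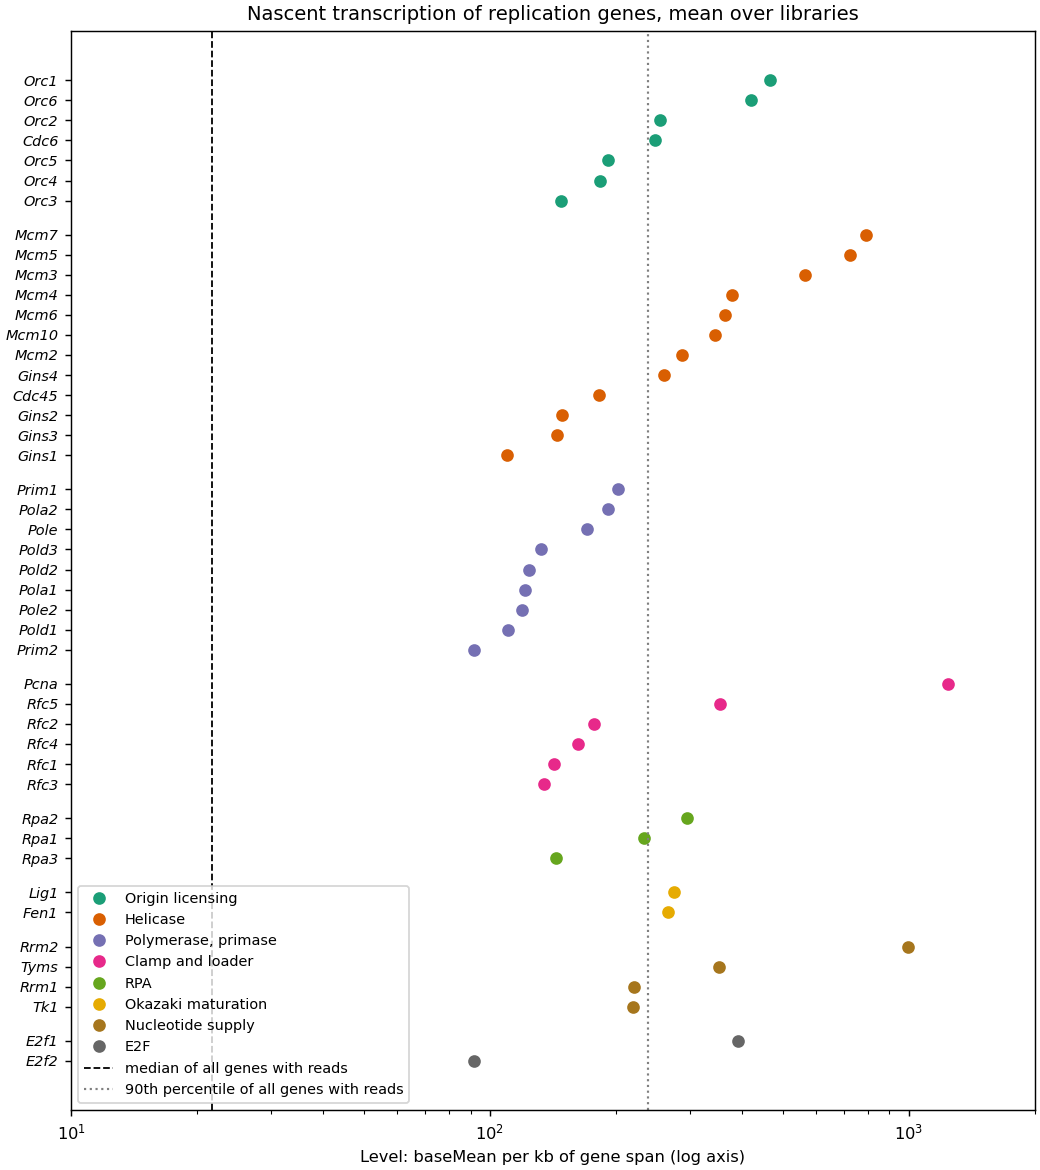
Level of each of the 45 measured members by role, as baseMean per kb of gene span on a log axis, 1 point per gene and no error bars, since the deposited mean has none. All 45 points lie to the right of the median of genes with reads (21.7, dashed line), and 20 lie to the right of the 90th percentile (239, dotted line).

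Among the licensing genes, the ORC subunits were unequal. Orc1, the subunit that binds and leaves ORC within each cycle, had 466 per kb of span, and Orc6, the smallest subunit, had 421. Orc2 had 255, Orc5 192, Orc4 183 and Orc3 148 per kb of span, so the highest subunit was 3.15 times the lowest. Per kb of merged exons the order was Orc1 4740, Orc2 2797, Orc5 1987, Orc6 1473, Orc4 1164 and Orc3 1073, a spread of 4.42-fold. Cdc6, the ATPase that joins ORC to load the helicase, had 248 per kb of span. It lay at a percentile of 90.6 on span and 78.4 on merged exons. Cdt1, which brings the MCM ring to ORC and is itself degraded in S phase, was listed at 0.

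The 0 of Cdt1 cannot be read as a measure of its transcription. In Gencode vM21 on GRCm38, Cdt1 (chr8:122568015-122573554, plus strand) lies wholly inside a gene annotated on the same strand, Gm20388, named Galnt2l in the deposited table, which spans 4.43 Mb of chromosome 8. The pair share no exon base. All 37 protein-coding genes inside Gm20388 on its strand were listed at 0, the ribosomal protein gene Rpl13 and the cytochrome oxidase gene Cox4i1 among them, while 0 of the 35 on the opposite strand were. Across the table, 180 of 182 genes that lay inside another coding gene on the same strand without a shared exon base were listed at 0 (98.9%), against 5.76% of 20447 genes with no such overlap. Of 72 genes inside a non-coding gene, 3 were at 0 (4.17%). Reads were therefore taken as counted over whole gene spans, with those that fall in more than 1 coding gene left out, and levels are given per kb of span. Pole2 was the only other member to share bases with a coding gene on its strand (Gm49384), over 9.44% of its span. Small or non-coding genes lie within or across the spans of Orc2 (Gm23966), Orc5 (Gm15421 and Gm22887), Pola1 (Gm23557), Prim2 (Gm37618), Pole (Gm15791 and Gm26277), Pold1 (Mir7053), Rfc1 (Gm43628), Rpa1 (Gm47300) and Rrm1 (Gm45399) on the same strand, and are not in the table of coding genes. The upstream antisense window of Cdt1, which is counted separately, had reads, as described below.

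**Figure D3:**
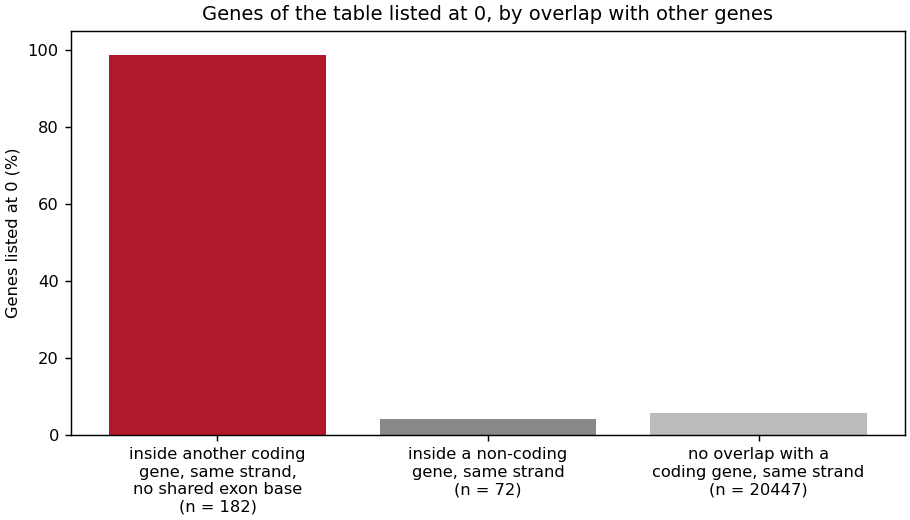
Percent of protein-coding genes listed at 0, by their overlap with other genes on the same strand. The bar for genes inside another coding gene, where Cdt1 belongs, stands at 98.9%, and the others stand at 4.17% and 5.76%.

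Per kb of span, the MCM ring genes were among the more highly transcribed members. Mcm7 had 792, Mcm5 726, Mcm3 567, Mcm4 379, Mcm6 364 and Mcm2 287 per kb of span, all above the 90th percentile of genes. The ring holds 1 copy of each subunit, and these levels spread over 2.75-fold. Mcm7 also carries the microRNA genes Mir25, Mir93 and Mir106b within its span. Mcm10, which helps to activate the loaded helicase, had 345 per kb of span. Cdc45, which completes the active helicase, had 182. The GINS genes were lower, with Gins4 at 260, Gins2 at 149, Gins3 at 145 and Gins1 at 110 per kb of span. The highest GINS gene was thus below the lowest MCM ring gene, a difference of levels that could not be set against an error. Per kb of merged exons the order differed: Gins4 had 2131 and Mcm2 632. On that length Mcm2, Mcm7 and Mcm4 lay at percentiles of 74.8, 88.9 and 89.1, while Mcm3, Mcm5 and Mcm6 stayed above the 90th. The ring genes then spread over 5.43-fold.

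The polymerase and primase genes had the lowest median of the 8 role groups, at 124 per kb of span, and on that length spread over 2.21-fold. On the other lengths they were not the lowest: per kb of merged exons their median was 783 and that of the nucleotide supply genes 726, and per kb of the longest transcript's exons their median percentile was 85.3 and that of the E2F genes 74.1. Prim1, the catalytic subunit of primase, had 202, and Pola2, the second subunit of polymerase alpha, had 191 per kb of span. Pole, the catalytic subunit of the leading-strand polymerase, had 171, and its partner Pole2 had 119. The polymerase delta genes Pold3, Pold2 and Pold1 had 132, 124 and 110 per kb of span. Pola1, the catalytic subunit of polymerase alpha, had 121 and Prim2, the large subunit of primase, 91.6 per kb of span. Per kb of span, all 9 lay below the 90th percentile and at or above a percentile of 69.7. Per kb of merged exons they spread over 12.3-fold, from 366 for Pold1 to 4497 for Pola1. On that length Pola1 lay at a percentile of 98.7 and Prim2 at 97.5.

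Pola1 and Prim2, the longest genes among the members, also had the highest baseMean. Pola1 spans 327 kb on the X chromosome and had a baseMean of 39630, which was 13.2% of the sum over the members. Prim2 spans 216 kb and had a baseMean of 19793. At the other end, Rpa3 spans 3.24 kb and had a baseMean of 465. Across the 45 members, baseMean and span had a Spearman rho of 0.71, and across 20140 genes 0.47. Per kb of span the rho was -0.36 across members and 0.06 across genes. These are descriptions across genes of the same libraries, and genes are not independent replicates. On merged exons, which leave out the introns, Pola1 ranked 2 and Prim2 4 of the 45, against 40 and 44 on span.

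**Figure D4:**
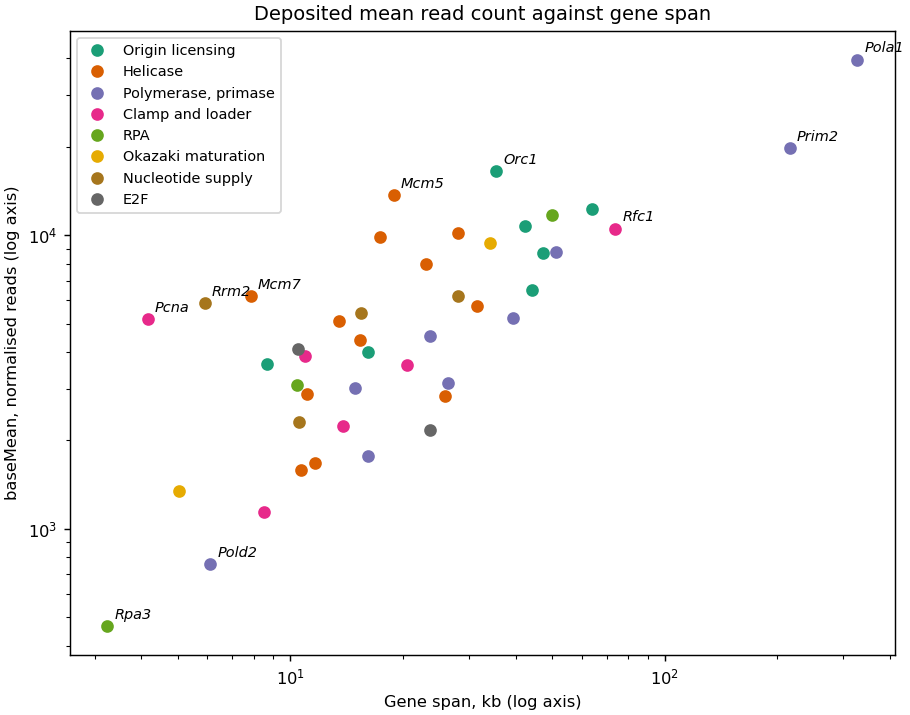
BaseMean of the 45 measured members against gene span, both on log axes, coloured by role, 1 point per gene. Pola1 and Prim2 lie at the right end and Rpa3 at the lower left, while Pcna and Rrm2 lie above the other genes of short span.

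Per kb of span, the clamp and its loader stood apart from each other. Pcna, the ring that holds polymerases on DNA, had 1246 per kb of span, the highest of the members, at a percentile of 99.2. The loader genes had 355 for Rfc5, 177 for Rfc2, 162 for Rfc4, 143 for Rfc1 and 135 for Rfc3. Per kb of merged exons Pcna had 2156, and the loader genes had 1748 for Rfc1, 1462 for Rfc4, 832 for Rfc5, 575 for Rfc2 and 317 for Rfc3. The loader genes thus spread over 2.63-fold on span and 5.51-fold on merged exons. On that length Pcna ranked 9 of the 45. Since PCNA is a trimer and each loader holds 1 copy of each subunit, the ratio of genes is not one of complexes. Pcna and Tyms have annotated pseudogene copies (Pcna-ps1, Pcna-ps2 and Tyms-ps), and the authors kept only reads with a single alignment, so reads shared with a copy are missing from their values. For single-strand binding, Rpa2 had 296, Rpa1 233 and Rpa3 144 per kb of span. Lig1, the ligase that joins Okazaki fragments, had 275, and Fen1, the nuclease that trims their flaps, had 266.

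The nucleotide supply genes lay between a percentile of 88.6 and 98.9 of genes per kb of span, and between 68.5 and 94.1 per kb of merged exons, where their median of 726 was the lowest of the role groups. Rrm2, the regulated small subunit of ribonucleotide reductase, had 995, and Rrm1, the large subunit, had 220. Tyms, which makes thymidylate, had 352 and Tk1, which salvages thymidine, had 219.6. Per kb of span the level of Rrm2 was the second of all members, behind Pcna. Of the activator E2Fs, E2f1 had 392 and E2f2 91.4 per kb of span, the lowest of the members. On merged exons Rrm2 ranked 11 and E2f2 40 of the 45, and Rfc3 was lowest.

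Promoters often fire in both directions, and the unstable upstream antisense transcripts, PROMPTs, were counted by the authors in windows of up to 1000 bp before each start. A PROMPT row was present for 31 of the 46 genes. All 15 genes with no row (Orc3, Orc5, Mcm4, Mcm7, Cdc45, Gins2, Prim2, Pole2, Pcna, Rfc4, Rfc5, Rpa1, Rpa3, Fen1 and Tk1) had an annotated gene on the opposite strand in the 1000 bp before the start, as did 7 of the 31 with a row. An opposite-strand gene started within those 1000 bp for 14 of the 46 members (30.4%), against 17.2% of 10078 genes at or above the median baseMean and 10.8% of all 21817 genes with a position. The nearest were the lincRNA 6030443J06Rik, which started 3 bp from Orc5, and Rars2, an arginyl-tRNA synthetase gene, which started 13 bp from Orc3. The coding pairs ranged from near equal to unequal. Gins1 had 110 and Abhd12 118 per kb of span, and Orc3 had 148 and Rars2 115. Pole had 171 and Pxmp2 85.6, and Rpa1 had 233 and Smyd4 54.7. Orc1 had 466 and Prpf38a 243 per kb of span, and Mcm4 had 379 and Prkdc 47.1. By baseMean, without regard to length, Prkdc had 9633 and Mcm4 5112. Rpa3 had 144 per kb of span, while its coding neighbours Gm45062 and Umad1 had 0.144 and 0.00105. These neighbours start 277 and 115 bp from Rpa3, on the same strand as each other, and their spans overlap. Reads in more than 1 coding gene were taken as left out, so the neighbours' values cannot be read as measures of their transcription. The other genes that started there were Gm15834 (Orc2), Gm10614 (Gins2), 1700001G17Rik (Prim2), AV099323 (Pcna), 6330408M09Rik (Rfc4) and Gm15728 (Rfc5).

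Of the nucleotide supply genes, 2 had PROMPTs far above the other members' median. Rrm2 had a PROMPT baseMean of 156, the highest of the members, at a percentile of 99.6 of the 32253 PROMPTs. Tyms had 92.1, and Rrm1 had 9.85. Cdt1, whose gene row was at 0, had 107 in its PROMPT window, at a percentile of 99.2. Mcm5 had 61.0, Rpa2 32.7, Rfc1 31.5, Pola2 24.5, Mcm6 18.4, E2f1 15.1 and Pola1 12.2. With Rrm2, Tyms and Cdt1 these made 10 members with a PROMPT baseMean of at least 10 (32.3%), beside 27.4% of the PROMPTs of genes at or above the median baseMean.

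The remaining PROMPTs were weaker. Those of Mcm2, Rfc2, E2f2, Gins1, Gins3, Mcm3 and Mcm10 lay between 4.20 and 9.71. Those of Orc1, Orc2, Gins4, Prim1 and Lig1 lay between 1.10 and 2.46. Of the rest, Orc4, Orc6, Cdc6, Pole, Pold1, Pold2, Pold3 and Rfc3, none reached 1, and Pold1 was lowest at 0.233. Among these weaker ones, Orc1, Orc2, Orc4, Orc6, Gins1, Pole and Lig1 have an annotated gene on the opposite strand in the window. Whether this lowers their PROMPT values was not tested. In all, 23 of 31 members had a PROMPT baseMean of at least 1 (74.2%), beside 67.3% of the 8103 PROMPTs of genes at or above the median baseMean and 33.7% of all PROMPTs. The members' median was 5.99, beside 2.88 for the PROMPTs of those genes.

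Within the groups, the polymerase delta genes had PROMPTs under 1 at all 3 genes, while both polymerase alpha genes had PROMPTs above 10. The 7 PROMPTs named above as having an annotated gene on the opposite strand in the window had a median of 1.10. The 24 without one had a median of 8.86. For the 30 genes with both values, the PROMPT was a median of 2.30% of the gene level per kb of span, taking the window as 1 kb. The range was from 0.153% for Orc6, whose window holds part of Vps35 on the opposite strand, to 26.2% for Tyms. The same median was 2.96% over 8102 genes at or above the median baseMean. Without genes that have an annotated gene on the opposite strand in the window the order turned, with 4.13% over 23 members and 3.70% over 6619 of those genes. Across the 30 members the PROMPT baseMean and the gene level per kb had a Spearman rho of 0.39, as a description over genes of the same libraries.

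**Figure D5:**
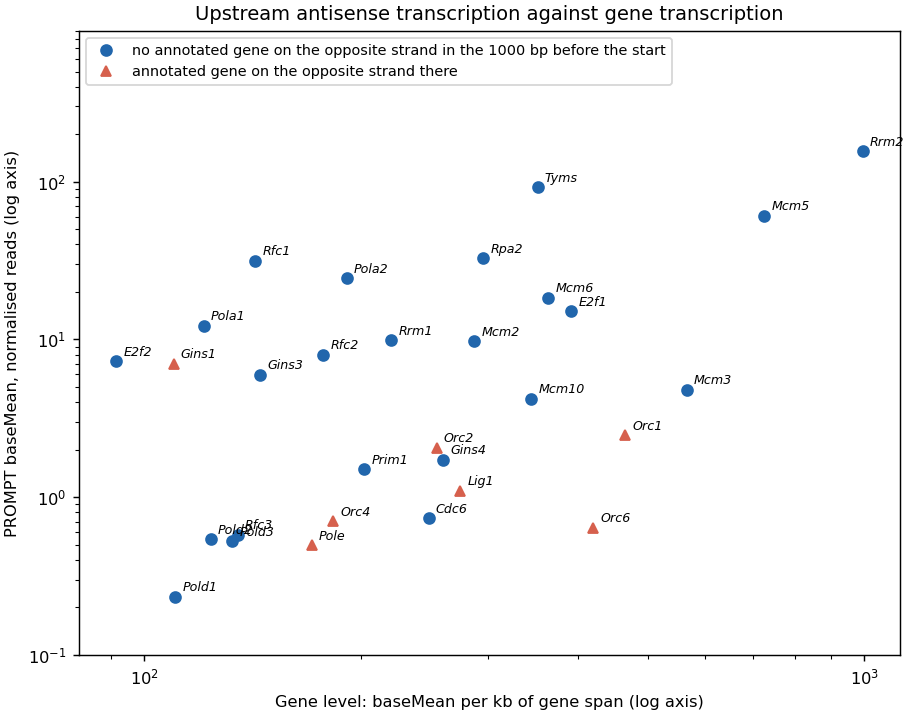
PROMPT baseMean against gene level per kb of span for the 30 members with both values, on log axes, with triangles for members that have an annotated gene on the opposite strand in the 1000 bp before the start. Rrm2, Tyms and Mcm5 lie at the top, the polymerase delta genes at the bottom left, and Orc6, a triangle, at the right with 0.642.

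The levels of genes with and without an E2F-type word overlapped. The 15 measured members with a word had a median of 148 per kb of span, and the 23 without one had 233. Per kb of merged exons the order turned, with a median of 1136 with a word (Pold3) and 1035 without (Mcm10). Pcna, Rrm2 and Tyms, with levels of 1246, 995 and 352 per kb of span, had no word in the window, and Mcm7 and Mcm5, at 792 and 726, had one.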

How the data were processed

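Nascent RNA of 18 TT-seq libraries in 6 conditions was analysed from deposited tables. Per the authors' methods, Trim Galore was used for trimming and STAR for alignment to mm10, unique alignments were kept, featureCounts counted reads by strand on Gencode vM25 features, and DESeq2 gave size factors. The labels also name HTSeq. The deposited baseMean is a signal, the authors' mean over libraries of counts divided by size factors, with no SD. The sources used here do not list the libraries behind it, and depth per library was not derived; the smallest value above 0 was 0.0216. The tables' other columns hold the authors' own comparison of depleted with control cells (log2 fold change, its standard error, p and adjusted p) and were not used, so no test was run. Tables of regions with no coordinates were not used.

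Members and lists were chosen with earlier results of these data known. All 46 members were named, and of the 47 further replication genes only the highest and lowest. Annotated genes that overlap a member on its strand, or start within 1000 bp before it on the other, were named whatever their values. Positions came from Gencode vM21 on GRCm38, and 42 genes of the table had none. Levels per kb had been planned on merged exons, and were changed to gene span after the tables showed counting over spans. Percentiles are among genes with reads. Promoter windows were from RefSeq on GRCm38.p6, and a gene with several windows was counted once. The CCAAT and GC box words and the joined 12 bases were chosen after seeing the windows. The functions were tested on simulated data. Values were computed in Python 3.11.15 with scipy 1.17.1, pandas 2.3.3 and numpy 2.4.6, and plotted with matplotlib 3.10.9.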

Additional observations from a re-analysis of the deposited data

How the results depend on the processing

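The count of members above the median level per kb was 45 with every length tried: gene span, merged exons, the longest transcript's exons and the span not shared with another coding gene (the last added after seeing the data). Their median percentile lay between 85.5 and 88.6 over these lengths, and by baseMean between 78.2 and 85.5 over the backgrounds and the ranking per kb of exons. The order within the list depended more on the length, with a Spearman rho of 0.38 between levels per kb of span and of merged exons. A PROMPT baseMean of at least 10 in place of 1 left 10 of 23 members. The PROMPT in percent of the gene level had a median of 2.30 on span, 0.322 per kb of merged exons, 0.0658 with neither value per length, and 4.13 without members that have an opposite-strand gene in the window. By construction these change the length or the set of genes. The share of members with an E2F-type word was 23.1% before the RefSeq start alone, in place of 41.0%. The share of all genes was 5.93% with the looser word TTTNNCGC (43.6% of members) and, added after seeing the data, 5.06% among genes at or above the median baseMean, in place of 2.61%. For PROMPTs of at least 1, the background was 67.3% among those of genes at or above the median baseMean, also added later, in place of 33.7%. No paired analysis was possible because the deposited mean carries no replicate number and no result comes from a test; for the same reason no replicate was left out. Depth per library is unknown here, so values near 1 in PROMPTs carry an unknown counting error.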
